A study of Mus musculus with 3 samples.

Results

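Ribosomal protein genes encode the proteins that, with the ribosomal RNAs, build the cytosolic ribosome. The 81 described here were taken by symbol from the 31053 genes of the deposited matrix: Rps or Rpl followed by a number, with or without an a, l, x or p ending, plus Rplp0, Rplp1, Rplp2 and Rpsa. Pseudogene rows and the Rps6k kinase genes were left out. The large subunit accounted for 50 members and the small subunit for 31. Together they held 22272732 of 107445263 UMIs (unique molecular identifiers, 1 for each captured RNA molecule), or 20.7%.

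Blood leukocytes of C57/BL6J mice were profiled by droplet 3′ single-cell RNA sequencing to follow their transcriptome under sleep deprivation. A control group (Con, 0 h) and groups after 24 h (SD24h) and 48 h (SD48h) of sleep deprivation had 1 library each, and each library pooled the leukocytes of 3 mice after lysis of red cells. The 3 libraries share 1 matrix and differ in their barcode ending (1, 2 or 3), and which ending belongs to which group is not labelled. No effect of sleep deprivation was estimated for that reason, no library served as control, and no p-value is given. What is compared is each cell class with B-like cells inside the same library, and the spread of the 3 libraries. Intervals are exact, at 95%. They cover counting error, and the spread from mouse to mouse is outside them.

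A ribosome joins a small subunit, which reads the mRNA, to a large subunit, which makes the peptide bond. Its proteins are needed in near equal numbers, and their mRNAs share a tract of pyrimidines at the 5′ end through which mTOR signalling sets how fast they are translated. Neutrophils leave the bone marrow with most of their proteins already made. The number of ribosomes per cell was not measured here.

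After filtering, 6864, 5775 and 5578 cells were kept in libraries 1, 2 and 3, from 8815, 6648 and 6741 barcodes. Between 26 and 35 kept cells per library carried a barcode sequence also found in another library. Classes were named from RNA markers, in a clustering that did not use the members. Library 1 stood apart in its make-up: neutrophil-like cells were 7.90% of its cells, against 56.1% and 35.6% in libraries 2 and 3, and B-like cells were 58.0%, against 23.9% and 34.9%. Its neutrophil-like cells also lay almost entirely (532 of 542) in a cluster led by Cd101, Jaml and Lst1 that held 53 and 25 cells of libraries 2 and 3. That cluster met 7 of 18 neutrophil markers and 8 platelet markers, whereas the other 2 neutrophil-like clusters met 18 and 13 neutrophil markers and 0 platelet markers. Platelet markers were not confined to it. A B-like cluster led by Fcer2a, with 1567, 166 and 286 cells in libraries 1, 2 and 3, met 7 of them. Over all kept cells the members took 27.4%, 16.2% and 19.6% of UMIs in libraries 1, 2 and 3. These totals follow the mix of classes, so the classes are given one by one.

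T-like cells devoted the largest share of their UMIs to ribosomal proteins among the 6 named classes. In T-like cells the share was 40.9%, 41.0% and 41.7% in libraries 1, 2 and 3. B-like cells followed with 27.2%, 28.7% and 29.6%. The 3 libraries did not overlap between these classes, and T-like cells were 1.501, 1.43 and 1.41 times as high as B-like cells.

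NK-like and monocyte-like cells came next, at similar levels. NK-like cells gave 18.5%, 19.8% and 22.6%, and monocyte-like cells gave 19.3%, 18.0% and 19.1%. The order of these neighbours was not the same in the 3 libraries, since monocyte-like cells were higher in library 1 and NK-like cells in libraries 2 and 3. Relative to B-like cells the share was 0.680, 0.690 and 0.762 in NK-like cells and 0.707, 0.627 and 0.644 in monocyte-like cells.

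Neutrophil-like cells stood far below, with 5.14%, 2.61% and 2.56% of UMIs on ribosomal protein genes. B-like cells were 5.29 times (95% interval 5.26 to 5.33), 11.002 times and 11.5 times as high in libraries 1, 2 and 3. The median neutrophil-like cell held 127, 81 and 125 ribosomal protein UMIs in libraries 1, 2 and 3, and the median B-like cell held 1102, 1086 and 1065. The gap was thus present in the number of molecules captured per cell as well as in their share of the total.

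**Figure D1:**
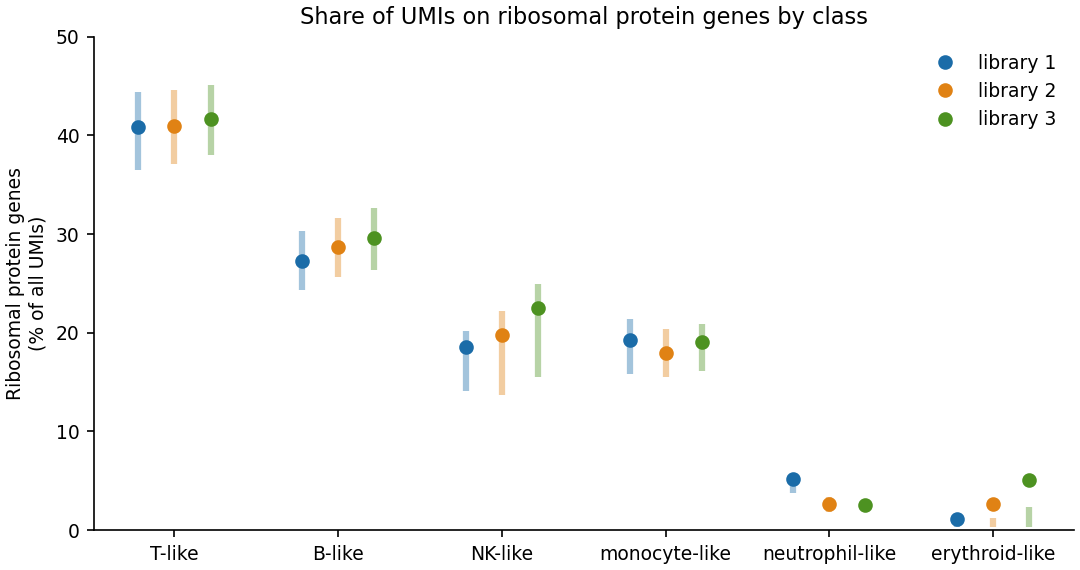
Percent of all UMIs that fell on the 81 ribosomal protein genes (vertical axis) in each named class (horizontal axis). Points are the summed UMIs of a class in 1 library, coloured by library, and bars span the quartiles of single cells. The order from T-like (40.9% to 41.7%) to B-like (27.2% to 29.6%) to neutrophil-like cells (2.56% to 5.14%) is the same in each library.

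Inside a class the share moved with the cluster. Of the T-like clusters, the one led by Cd8b1 and Cd8a had 41.7%, 41.9% and 42.6% in libraries 1, 2 and 3, above the Cd4-led one with 39.9%, 40.1% and 40.4%. The monocyte-like cluster led by Fn1, Vcan and Ccr2 had 20.7%, 18.3% and 19.6%. The one led by Ear2, Ace and Adgre4, genes of patrolling monocytes, had 16.8%, 15.7% and 17.9%. In B-like cells the cluster led by Akap12, Lynx1 and Fam129c was lowest of 5, at 21.3%, 23.4% and 24.3%, and the cluster led by Chchd10 and Scd1 was highest in each library, at 29.5%, 29.9% and 31.0%. These clusters kept their order in each of the 3 libraries.

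Erythroid-like cells had the lowest share in library 1, and their values rested on little RNA. The share was 1.17%, 2.65% and 5.13% in libraries 1, 2 and 3, of cells in which haemoglobin genes took 85.2%, 72.5% and 66.3% of UMIs. Leaving haemoglobin out of the total gave 7.94%, 9.62% and 15.2%. B cell markers stood in these cells at 3.03%, 7.41% and 12.9% of their level in B-like cells, in the same library order, with 0 of 13 markers at 0. Neutrophil markers summed to 105, 42532 and 32584 CPM, and the class held a small cluster of 0, 19 and 14 cells in libraries 1, 2 and 3 that met 15 neutrophil markers. The part of either RNA in the share was not tested. The median single cell had 0.522%, 0.458% and 0.875%.

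The lower share in neutrophil-like cells was spread over nearly the whole set. Of the 81 members, 78 reached the minimum of 20 UMIs in each of the 5 leukocyte classes in each library and are called measured. A member counted as lower or higher when its CPM (UMIs per 1000000 UMIs of the class and library) differed from B-like cells by at least 1.5-fold in each of the 3 libraries. Against B-like cells 77 of the 78 were lower in neutrophil-like cells and 0 were higher. Of all 4881 genes measured in both, 27.8% were lower and 19.9% higher by the same rule. The median log2 ratio of the members was -2.55, -3.80 and -3.83 in libraries 1, 2 and 3, beside 0.07, -0.39 and -0.60 for all genes. All 47 measured large-subunit genes were lower, with median log2 ratios of -2.50, -3.71 and -3.81, and so were 30 of 31 small-subunit genes, with -2.63, -4.01 and -3.90. Of the members' UMIs the large subunit held 53.3%, 50.6% and 49.6% in neutrophil-like cells and 53.6%, 53.6% and 53.5% in B-like cells.

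Scaling bears on the size of this difference. S100a8 and S100a9, the calprotectin genes, took 12.5%, 26.4% and 31.0% of all neutrophil-like UMIs in libraries 1, 2 and 3. With TMM, a scaling by the trimmed mean over genes of their log ratios, in place of total UMIs, the shift in the log2 ratios of neutrophil-like to B-like cells was 0.30, 1.07 and 1.20 in libraries 1, 2 and 3. Against all measured genes, which such a shift leaves unchanged, the members' median stood at -2.62, -3.40 and -3.23 log2 units.

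Lymphocyte RNA was also detected in neutrophil-like cells. B cell markers reached 2.61%, 0.526% and 0.598% of their B-like level in libraries 1, 2 and 3, and T cell markers 2.84%, 0.933% and 0.865% of their T-like level. Ribosomal protein UMIs in proportion to those markers would come to 1.87, 0.533 and 0.537 percentage points. Member by member, this part reached or passed the whole neutrophil-like level in 4, 4 and 3 of 78 members in libraries 1, 2 and 3, and in both Rpl10a and Rpl12 it did so in each library. With that part subtracted, and the total reduced by the same marker fractions, the neutrophil-like share was 3.46%, 2.10% and 2.06%. B-like cells were then 7.87, 13.6 and 14.4 times as high.

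Rps9, which encodes a small-subunit protein near the site where mRNA enters, was the exception among the 78, through its ratio in library 1. Without that library 78 of 78 were lower. Its level in neutrophil-like cells was 3036, 2432 and 2513 CPM in libraries 1, 2 and 3, and in B-like cells it was 3867, 4313 and 4375 CPM. Neutrophil-like cells were lower in each library, by ratios of 0.785 (95% interval 0.762 to 0.809), 0.564 and 0.574. Rps9 alone gave 5.90%, 9.33% and 9.80% of the ribosomal protein UMIs in neutrophil-like cells, more than any other member, against 1.42%, 1.504% and 1.48% in B-like cells. In NK-like cells, by contrast, Rps9 was among the members called lower, with 2128, 2357 and 2658 CPM. In monocyte-like cells it had 4025, 4404 and 4360 CPM, near the B-like values. Pirb, a myeloid receptor gene on the opposite strand 4512 bases from Rps9, had 556, 783 and 748 CPM in neutrophil-like cells.

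Other members stayed above the rest of the set as well. A member was called apart when its log2 ratio departed from the members' median by at least 1.5-fold in 1 direction in the 3 libraries. Departure from the members' own median was not counted over all genes, so whether such counts are large was not tested. Above the median were 7: Rps9, Rps27a, Rpl37, Rps27l, Rpl41, Rps25 and Rpl9. Rps27a, which is made as a fusion with ubiquitin, had 2090, 1214 and 1572 CPM in neutrophil-like cells and 3601, 3958 and 4134 CPM in B-like cells, ratios of 0.580, 0.307 and 0.380. Rpl37, a short large-subunit protein, had 1795, 862 and 758 CPM against 3711, 3205 and 3151 CPM. Its ratios were 0.484, 0.269 and 0.241.

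Below the median were 14 members, led by Rpl10a, Rpl12, Rpl3 and Rps19. Rpl10a, a protein of the flexible L1 stalk, had 106, 29.4 and 37.9 CPM in neutrophil-like cells and 2052, 2250 and 2454 CPM in B-like cells. The part in proportion to lymphocyte markers would be 144, 42.9 and 45.7 CPM. The level of Rpl10a did not exceed that part in any of the 3 libraries, so its ratio only marks the end of a range. Rpl12, which anchors the acidic stalk, had 225, 65.3 and 68.9 CPM against 3780, 4087 and 4363 CPM, with a lymphocyte part of 313, 93.0 and 91.0 CPM. Rpl3, which lies close to the peptidyl transferase centre, had 117, 37.0 and 54.3 CPM against 1853, 1977 and 2209 CPM, with a lymphocyte part of 139.8, 43.6 and 46.0 CPM. Rps19, the gene most often mutated in Diamond-Blackfan anaemia, had 327, 141 and 179 CPM against 5489, 5934 and 6157 CPM, with a lymphocyte part of 358, 102 and 104 CPM. None of these values overlapped between the classes. Library 1 was the highest of the neutrophil-like values in each of these genes, and its lymphocyte part was the highest too and exceeded the level itself in all 4.

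Also in that lower group was Rpsa, the laminin receptor precursor that sits on the small subunit. It had 333, 114 and 166 CPM in neutrophil-like cells, where the lymphocyte part would be 309.9, 94.3 and 98.3 CPM, and 4065, 4513 and 4849 CPM in B-like cells. Rps20, Rps18, Rpl32, Rpl36al, Rpl35, Rpl36a, Rpl14 and Rps15a were in the group as well. From Rps9 to Rpl10a the log2 ratios ran from -0.35 to -4.27 in library 1, from -0.83 to -6.26 in library 2 and from -0.80 to -6.02 in library 3, where the lower end lies within the lymphocyte part. That part was 237, 69.8 and 71.5 CPM for Rps9, small beside its level.

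**Figure D2:**
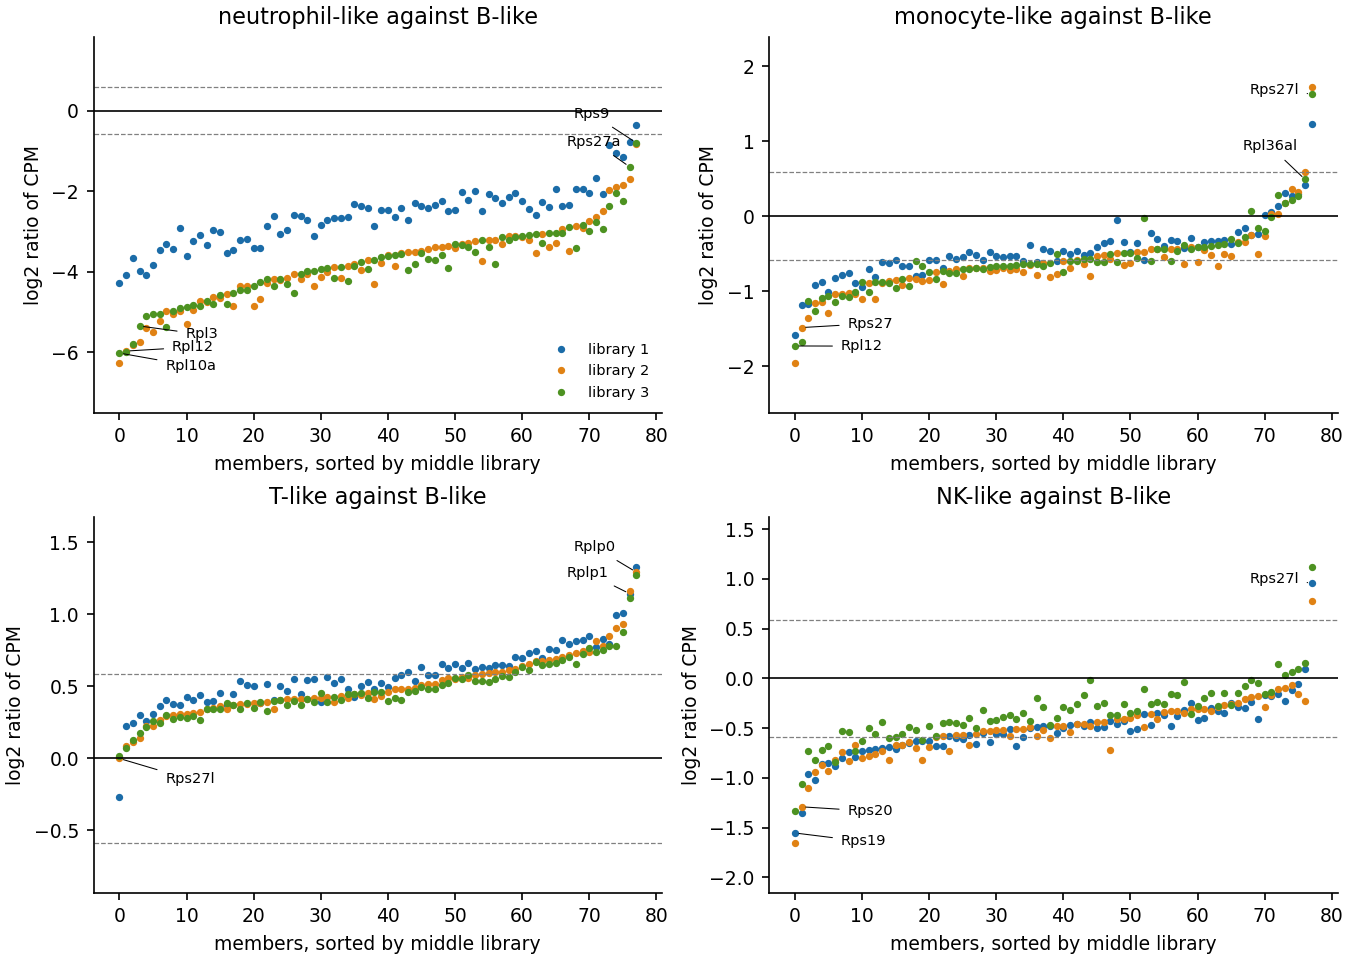
Log2 ratio of CPM to B-like cells (vertical axis) for each of the 78 measured members, sorted by the middle of the 3 libraries (horizontal axis), in 4 classes. Points are libraries and dashed lines mark 1.5-fold. In neutrophil-like cells 77 members lie below the lower line in each library and Rps9 is nearest 0, while in T-like cells Rplp0 and Rplp1 lie highest. Vertical axes differ in range.

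Promoter sequence was looked at because the members moved together and Rps9 and Rpl10a did not keep pace. RefSeq windows (GRCm38.p6) from 250 bases before to 50 after the annotated start matched 61 of the 81 members. A run of at least 8 C or T on the gene's strand within 25 bases of the start was found in 29 of 61 (47.5%), against 19.4% of 27025 windows of all genes. CCGGAAG, searched on both strands over the whole window, was found in 24 (39.3%) against 9.12%. AAGATGGC was in 6.56% against 2.88%, CACGTG in 8.20% against 7.24% and TATAAA in 8.20% against 14.2%, with the same search. The windows of 4 members at the ends of the comparisons are shown. Lowest and highest in their labels refer to the ratio to B-like cells among measured members, not to CPM. Each window runs from 100 bases before to 30 after the start, with the longest C or T run near the start in capitals:

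Rpl10a, chr17:28328371-28328500, plus strand, lowest in neutrophil-like cells: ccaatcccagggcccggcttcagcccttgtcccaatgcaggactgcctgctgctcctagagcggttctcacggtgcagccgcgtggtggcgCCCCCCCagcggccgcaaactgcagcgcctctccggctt
Rps9, chr7:3703941-3704070, plus strand, nearest to B-like cells: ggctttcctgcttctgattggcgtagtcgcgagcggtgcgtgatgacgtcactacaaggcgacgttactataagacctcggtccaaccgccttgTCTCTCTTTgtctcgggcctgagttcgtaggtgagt
Rps27l, chr9:66945986-66946115, plus strand, highest in monocyte-like and NK-like cells: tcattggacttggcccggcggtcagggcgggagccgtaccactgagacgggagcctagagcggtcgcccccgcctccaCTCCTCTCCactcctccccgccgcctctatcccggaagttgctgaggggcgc
Rplp0, chr5:115559367-115559496, plus strand, highest in T-like cells: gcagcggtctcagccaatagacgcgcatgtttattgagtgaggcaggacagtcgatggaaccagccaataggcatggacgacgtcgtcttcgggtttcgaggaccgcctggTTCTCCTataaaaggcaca

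The run was 9 bases long in Rps9 and Rps27l and 7 in Rpl10a and Rplp0. In Rps9 it began 6 bases before the annotated start and crossed it. Rps27l alone of these windows held CCGGAAG. Members with a run of at least 8 had a median log2 ratio of neutrophil-like to B-like cells of -2.53, -3.76 and -3.88 in libraries 1, 2 and 3 (28 measured members), and those without had -2.54, -3.92 and -3.70 (30 members). With and without CCGGAAG the medians were -2.67, -3.96 and -3.88 against -2.47, -3.78 and -3.67. These median ratios thus differed little with either sequence feature, though members with CCGGAAG had the lower median in each library.

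In monocyte-like cells the set was moderately lower than in B-like cells, with 1 clear exception. By the 1.5-fold rule 23 of 78 were lower, beside 13.5% of all 7579 genes measured, and 1 was higher, beside 20%. The median log2 ratio was -0.48, -0.68 and -0.62, against 0.06, 0.02 and 0.08 for all genes. Rpl12 was farthest down, with 1268, 1059 and 1318 CPM and ratios of 0.335, 0.259 and 0.302. Rps27 followed, with 3740, 2724 and 2483 CPM against 8455, 7607 and 7931 CPM in B-like cells. Next were Rps20, with ratios of 0.447, 0.391 and 0.457, and Rpl13a, with 0.499, 0.410 and 0.480.

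The exception was Rps27l, a paralogue of Rps27 known as a target of p53. Its level was 314, 420 and 373 CPM in monocyte-like cells and 133, 127 and 121 CPM in B-like cells, ratios of 2.36, 3.31 and 3.10. Rps27l and Rps27 thus stood at opposite ends of the set in the same cells. NK-like cells had Rps27l at 259, 217 and 262 CPM, 1.94, 1.71 and 2.17 times the B-like level, and Rps27 at 4599, 4316 and 4433 CPM, ratios of 0.544, 0.567 and 0.559. T-like cells had Rps27l at 110, 127 and 122 CPM, close to B-like cells, and neutrophil-like cells had 73.4, 32.4 and 23.5 CPM.

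Rpl36al, the paralogue of Rpl36a, also parted from its relative in monocyte-like cells. It had 844, 1047 and 946 CPM there and 632, 695 and 672 CPM in B-like cells, ratios of 1.34, 1.51 and 1.41, which passed 1.5-fold in library 2 only. Rpl36a had 895, 768 and 952 CPM against 1711, 1647 and 1743 CPM in B-like cells, ratios of 0.523, 0.466 and 0.546. In neutrophil-like cells both were low: ratios were 0.0927, 0.0303 and 0.0317 for Rpl36al and 0.100, 0.0316 and 0.0244 for Rpl36a. Rps27a and Rplp0 were slightly above B-like cells in monocyte-like cells, with ratios of 1.24, 1.13 and 1.13 and of 1.23, 1.25 and 1.21, though the set as a whole was below.

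Of the remaining paralogues, Rpl3l, known from striated muscle, was seen in myeloid cells only at low levels. It had 40, 260 and 256 UMIs in neutrophil-like cells of libraries 1, 2 and 3 (25.7, 22.7 and 23.0 CPM) and 65, 33 and 118 UMIs in monocyte-like cells (18.1, 7.40 and 19.5 CPM). B-like cells had 2 UMIs in each library, and T-like and NK-like cells had 0, where 3 UMIs would be 0.389, 0.898 and 0.564 CPM in T-like cells and 2.33, 8.47 and 3.84 CPM in NK-like cells. Rpl3l has a neighbour on the same strand, Msrb1, which lies 499 bases downstream. It had 4046, 3703 and 2351 CPM in neutrophil-like cells, 1023, 1352 and 1431 CPM in the monocyte-like class and 40.3, 54.8 and 43.1 CPM in B-like cells. Whether the Rpl3l UMIs stem from reads beyond either gene's annotated end was not tested. Rpl39l, known from testis, had 68 UMIs in the whole matrix, and Rpl10l, also known from testis, had 0.

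T-like cells were above B-like cells for 77 of the 78 measured members in each of the 3 libraries. Of these 19 passed 1.5-fold, beside 6.72% of all 7513 genes measured, and 0 were lower by that rule, beside 13.9%. The median log2 ratio was 0.55, 0.45 and 0.45, against -0.23, -0.19 and -0.20 for all genes. Farthest up were proteins of the acidic stalk, the flexible arm that recruits elongation factors. Rplp0, its base, had 6643, 7374 and 7825 CPM in T-like and 2646, 3011 and 3233 CPM in B-like cells, 2.51, 2.45 and 2.42 times as high. Rplp1 had 11145, 11396 and 11542 CPM against 5047, 5097 and 5344 CPM, 2.21, 2.24 and 2.16 times as high.

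The third stalk gene, Rplp2, was 1.78, 1.71 and 1.68 times the B-like level in T-like cells and so lay nearer the rest of the set. Rpl12, at the foot of the same stalk, was 1.99, 1.87 and 1.72 times as high, and Rpl5, which carries 5S RNA and binds Mdm2, was 2.01, 1.91 and 1.83 times as high. The stalk did not move as a unit elsewhere: in monocyte-like cells Rplp0 was above B-like cells, while Rplp1 had ratios of 0.582, 0.551 and 0.635 and Rplp2 of 0.762, 0.687 and 0.739. At the lower end in T-like cells were Rps27l, Rps27 and Rpl26. Rps27 had 9861, 8081 and 8330 CPM against 8455, 7607 and 7931 CPM, ratios of 1.17, 1.06 and 1.05.

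NK-like cells, the smallest class with 296, 82 and 156 cells, lay below B-like cells in 72 of 78 members in each of the 3 libraries. By the 1.5-fold rule 12 were lower, beside 4.51% of all 2615 genes measured, and 1, Rps27l, was higher, beside 24.1%. The median log2 ratio was -0.50, -0.51 and -0.35, against 0.34, 0.40 and 0.33 for all genes. Rps19 and Rps20 were apart from the set. Rps19 had 1869, 1888 and 2445 CPM, ratios of 0.340, 0.318 and 0.397 to B-like cells, and Rps20 had 2331, 2642 and 3194 CPM, ratios of 0.392, 0.409 and 0.478. At the other end Rps23 had ratios of 0.923, 0.954 and 1.04, Rpl23a of 0.958, 0.896 and 1.07 and Rpl10 of 0.896, 0.928 and 1.11, so NK-like cells and B-like cells differed little in these. In NK-like cells the TMM scaling moved log2 ratios by -0.28, -0.32 and -0.24, and in T-like cells by 0.23, 0.18 and 0.22, which left 40 members lower in NK-like cells and 53 higher in T-like cells. Rps27l was no longer called higher in NK-like cells with that scaling, where the count was 0.

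**Figure D3:**
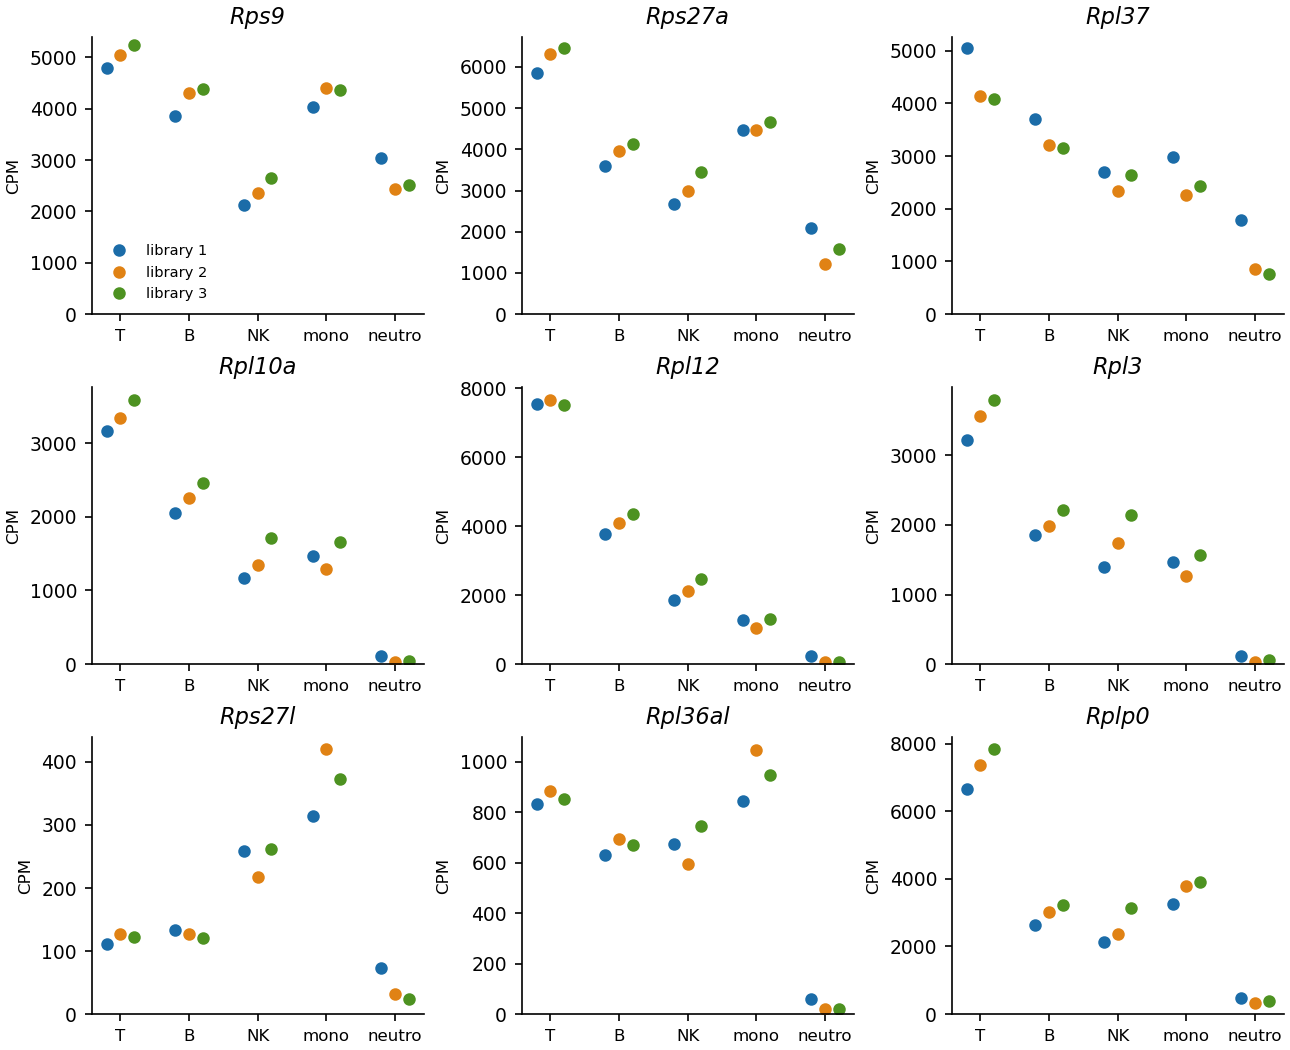
Level in CPM (vertical axis, from 0) of 9 members in T-like, B-like, NK-like, monocyte-like and neutrophil-like cells (horizontal axis), 1 point per library. Rps9, Rps27a and Rpl37 in the top row keep part of their level in neutrophil-like cells, whereas Rpl10a, Rpl12 and Rpl3 in the middle row lie at most at 225 CPM there. Rps27l is highest in monocyte-like cells (314 to 420 CPM).

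Other genes of the translation machinery were compared in the same way from lists of their own. Ribosomal proteins named by other symbols were lower in neutrophil-like cells in 6 of 7, beside the 27.8% of all genes. Rack1, a signalling scaffold on the small subunit, had ratios of 0.115, 0.0374 and 0.0428. The seventh was Fau, made as a fusion with a ubiquitin-like protein, with 5562, 3606 and 2863 CPM in neutrophil-like and 7444, 8008 and 8187 CPM in B-like cells, ratios of 0.747, 0.450 and 0.350. Fau, like Rps27a, was thus well above the members' median in neutrophil-like cells.

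Elongation factors were lower in neutrophil-like cells in 6 of 8 measured genes (of 10 listed), and initiation factors in 21 of 26 (of 29). Of all genes measured there, 27.8% were lower. Eef1a1, which brings aminoacyl-tRNA to the ribosome, had 864, 320 and 540 CPM against 5415, 5992 and 6209 CPM in B-like cells. Eif1, which helps to select the start codon, had 3156, 2365 and 1751 CPM against 1775, 1613 and 1591 CPM, ratios of 1.78, 1.47 and 1.10. It was the initiation factor farthest above its list. Other mRNAs with a 5′ pyrimidine tract were lower in 6 of 7, among them Npm1, a nucleolar chaperone, with 40.6, 12.9 and 19.6 CPM, where the lymphocyte part would be 48.9, 15.1 and 15.05 CPM. Pabpc1, the poly(A)-binding protein, was the exception, with ratios of 0.709, 0.497 and 0.558.

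Ribosome biogenesis genes were thinly measured in neutrophil-like cells, with 9 of 38 above the UMI minimum. Of these 6 were lower, beside 27.8% of all genes. In monocyte-like cells 35 were measured. Of these 13 were lower, beside 13.5% of all genes, and 2, Bysl and Pno1, were higher, beside 20%. Nop56, a snoRNP core protein, had ratios of 0.419, 0.337 and 0.318 there. Mitochondrial ribosomal proteins were lower in neutrophil-like cells in 24 of 33 measured genes (of 78 listed), beside the same 27.8%. Their median log2 ratio was -0.93, -1.79 and -1.84, a smaller difference than that of the cytosolic members in each library. Mrpl33 alone of the 33 was higher, beside 19.9% of all genes, with 976, 1237 and 867 CPM against 74.5, 88.3 and 76.7 CPM.

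Of the genes that control translation, 8 of 18 were measured in neutrophil-like cells, and 3 were lower and 2 higher, shares near the 27.8% and 19.9% of all genes. Eif4ebp1, the mTORC1 target that holds back cap-dependent initiation, had 340, 370 and 374 CPM in neutrophil-like and 62.5, 48.9 and 43.3 CPM in B-like cells, 5.43, 7.56 and 8.64 times as high. In monocyte-like cells it had 162, 217 and 196 CPM, and in T-like cells 32.9, 23.4 and 20.5 CPM. Over these classes, with NK-like cells left out, its order was the reverse of that of the ribosomal protein share. Any link between them was not tested. Max, the partner of Myc, was 2.57, 2.93 and 2.53 times the B-like level in neutrophil-like cells. Larp1, which binds the pyrimidine tract of ribosomal protein mRNAs, was lower, with ratios of 0.508, 0.0894 and 0.0796, as were Rps6kb1 and Larp4. Of the ribosome rescue and storage genes 2 of 5 measured (of 11) were lower, Serbp1 and Ltn1.

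In T-like cells few genes of these lists passed 1.5-fold, and 6.72% of all genes were higher there. Among elongation factors 2 of 9 were higher, Eef1b2 with ratios of 2.18, 2.22 and 2.19 and Eef1a1 with 1.68, 1.59 and 1.59, and 0 were lower. Initiation factors gave 2 of 29 higher, Eif4a1 and Eif3e, near that share, and biogenesis genes 1 of 36, Rrp9, below it. Of the other pyrimidine-tract mRNAs, Tpt1 and Npm1 were higher and Nap1l1 was lower. Tpt1, a calcium-binding growth protein, had 15018, 16385 and 15982 CPM against 8105, 9028 and 8958 CPM in B-like cells. NK-like cells had 3 of 27 initiation factors higher, Eif3j1, Eif1ax and Eif4a1, a smaller share than the 24.1% of all genes.

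**Figure D4:**
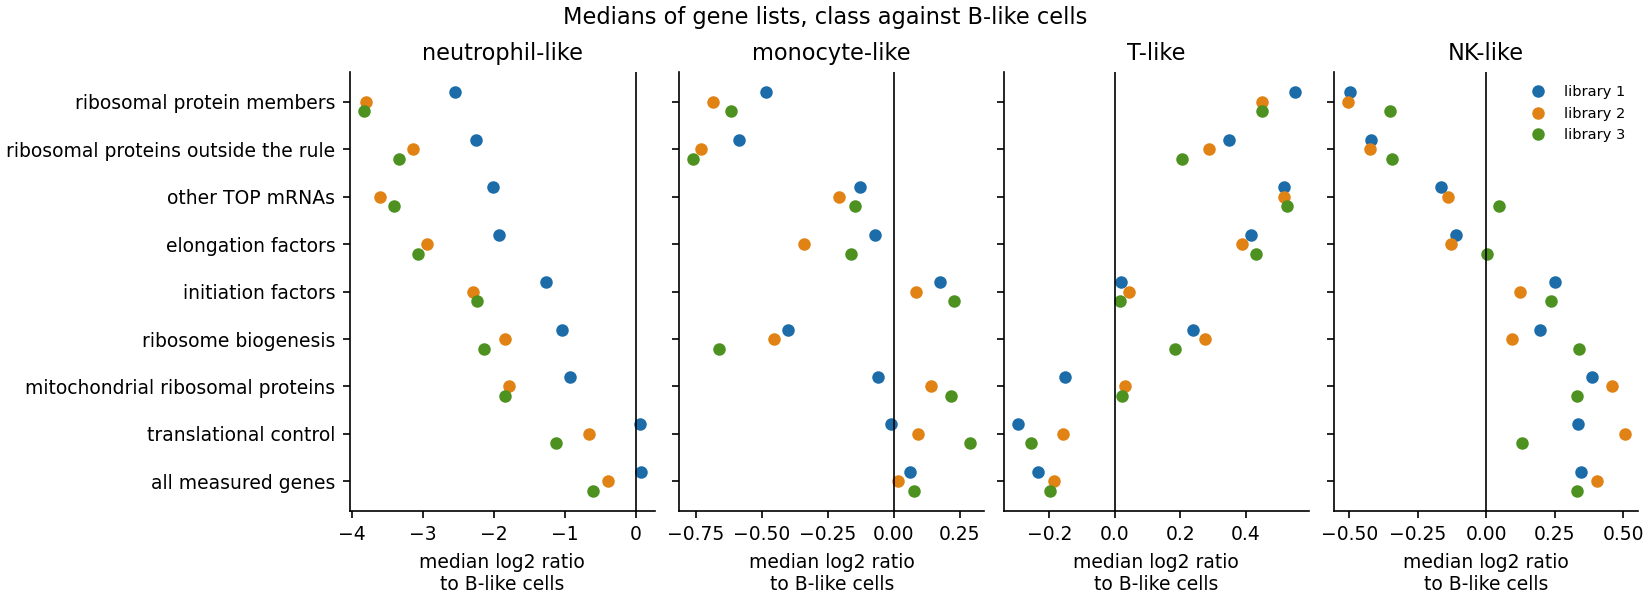
Median log2 ratio of CPM to B-like cells (horizontal axis, whose range differs between panels) for the members, 7 other lists and all measured genes (vertical axis), with 1 point per library. In neutrophil-like cells the members have the lowest medians (-2.55, -3.80 and -3.83), and in T-like cells their medians (0.55, 0.45 and 0.45) lie above 0, as do those of several other lists.

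The 3 libraries differed little in the members' levels in lymphoid cells and more in neutrophil-like cells. CPM of the highest library was at least 1.5 times that of the lowest for 76 of 79 measured members in neutrophil-like cells, beside 73.4% of all genes, and for 3 of 79 in monocyte-like cells, beside 26.7%. The counts were 0 of 78 in B-like cells (8.43% of all genes), 0 of 78 in T-like cells (12.9%) and 2 of 78 in NK-like cells (17.0%). The neutrophil-like share itself was 2.01 times as high in the highest library as in the lowest. That ratio was 1.66 with S100a8 and S100a9 left out of the total and 1.17 with TMM scaling, where the shares were 5.71%, 4.88% and 5.36%. In the Cd101-led cluster, to which most library 1 cells belonged, the share was 5.11%, 5.18% and 3.45% in libraries 1, 2 and 3, from 532, 53 and 25 cells. The cluster led by Ngp and Prok2 had 2.04% and 2.48% in libraries 2 and 3, and the one led by Clec4n and Fgl2 had 2.96% and 3.09%. The platelet marker level of neutrophil-like cells was 9188, 2748 and 2480 CPM, and that of B-like cells was 3565, 1550 and 1898 CPM. The part of platelet RNA in the members' levels was not tested.

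Within the set, shares of the members' own UMIs can be compared free of the total. This measure has no counterpart over all genes, so whether its counts are large was not tested. In neutrophil-like cells 19 of 79 members differed by at least 1.5-fold between the highest and the lowest library, in monocyte-like cells 2 (Rps2 and Rpl3l), and in the 3 lymphoid classes 0. Rps28, a short protein of the small-subunit head, had the widest spread in neutrophil-like cells by the interval bound nearest 1, with 0.796%, 0.415% and 0.393% of the members' UMIs in libraries 1, 2 and 3 (highest over lowest 2.02, 95% interval 1.83 to 2.23). Next were Rps18 with 0.537%, 0.274% and 0.306%, Rpl36a with 0.333%, 0.200% and 0.166%, and Rpl5 with 0.524%, 0.276% and 0.283%. In each of these library 1 was highest and libraries 2 and 3 lay close together. The B and T cell marker levels given above were also highest in library 1. In proportion to them, lymphocyte RNA would give 256, 80.5 and 82.9 CPM of Rps18, whose level was 276, 71.3 and 78.4 CPM, and 246, 54.3 and 53.5 CPM of Rps28, whose level was 409, 108 and 101 CPM.

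In monocyte-like cells Rps2 led by the interval bound nearest 1, with 0.854%, 1.04% and 1.51% of the members' UMIs (highest over lowest 1.77, 95% interval 1.72 to 1.82). The ratio itself was larger for Rpl3l, at 2.48 (1.67 to 3.77), from few UMIs. The level of Rps2 there was 1643, 1866 and 2880 CPM, highest in library 3. NK-like cells also had library 3 highest for Rps2, with 1826, 1863 and 2869 CPM, and T-like cells ran 4214, 4566 and 4850 CPM. By the same interval bound Rps28 led in the lymphoid classes as well, with a ratio of highest to lowest library of 1.29 in B-like, 1.34 in T-like and 1.36 in NK-like cells. Behind it in B-like cells came Rpl37 (1.28), Rpl38 (1.28) and Rps21 (1.26).

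Rps28 shared its pattern with other members of short coding sequence. The 9 measured members under 100 codons in GENCODE M21 (Rpl41, Rpl39, Rps29, Rps28, Rpl38, Rps21, Rps27, Rpl37a and Rpl37) had higher CPM in library 1 than in the mean of libraries 2 and 3 in each of the 5 classes. Their median log2 difference was 0.20 in B-like, 0.28 in T-like, 0.07 in NK-like, 0.35 in monocyte-like and 1.16 in neutrophil-like cells. Members of 200 codons or more had -0.19, -0.11, -0.29, -0.04 and 1.03 in the same order of classes. Rps29, for example, had 6614, 5650 and 5956 CPM in B-like and 10230, 8510 and 8601 CPM in T-like cells. Rpl3, one of the longest, had 1853, 1977 and 2209 CPM and 3216, 3563 and 3796 CPM, with library 1 lowest in both.

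Other genes under 100 codons did not show this difference to the same degree. Their median was 0.02 in B-like (179 genes), -0.05 in T-like (167), -0.05 in NK-like (115), -0.16 in monocyte-like (175) and 0.58 in neutrophil-like cells (148). Across the members Spearman's rho between coding length and the log2 difference was -0.73 in B-like, -0.66 in T-like, -0.71 in NK-like, -0.47 in monocyte-like and -0.28 in neutrophil-like cells, over 78 members in each lymphoid class and 79 in each myeloid class. These coefficients describe genes of the same libraries, which are not independent replicates, and library 1 was chosen for the comparison after its values were seen. Transcript length, RNA quality and the length of library fragments may each go with coding length, and their part was not tested.

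**Figure D5:**
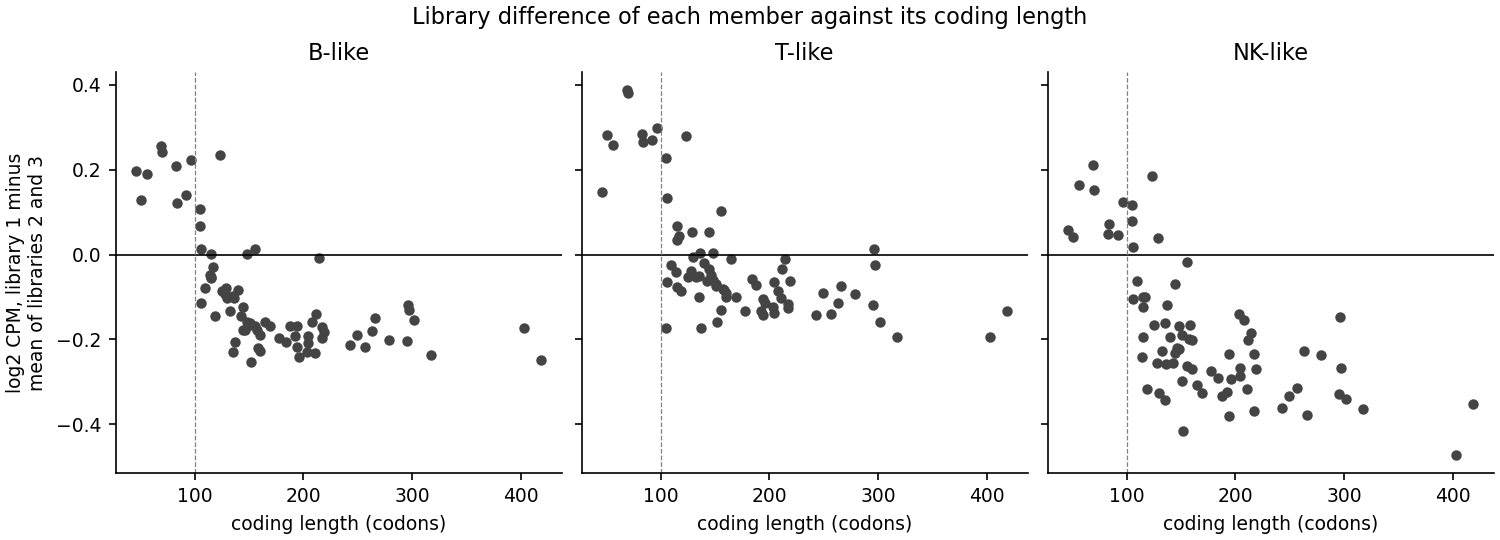
Log2 CPM of library 1 minus the mean log2 CPM of libraries 2 and 3 (vertical axis) against coding length in codons (horizontal axis) for each measured member, in 3 lymphoid classes (B-like, T-like, NK-like). The dashed line marks 100 codons. The 9 shortest members lie above 0 in each panel, and in B-like and NK-like cells each member of 200 codons or more lies below 0.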

How the data were processed

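The deposited file is 1 matrix of raw UMI counts per gene and barcode with no normalisation; per the file headers it was written by Cell Ranger 6.0.2, while the submitters' processing notes list Cell Ranger 4.0.0, Trimmomatic 0.39, R 4.0.2 and Seurat 3.0, and builds GRCm38 and mm10. Which Cell Ranger version set the counts is not given in the sources, and neither is the treatment of reads that fit several copies of a gene. Ribosomal protein genes have near-identical copies, so levels of single members are uncertain to that extent. Rows outside the symbol rule included Rps3a1 with 361956 UMIs, Rpl22l1 with 53086, Rps27rt with 48929 and Rpl10-ps3 with 10961.

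Per library, depth was 40807434, 30114546 and 36523283 UMIs. The cell filter asked for 200 detected genes or more and allowed 10% mitochondrial UMIs. Doublets were scored with Scrublet in scanpy 1.11.5 at an expected 6%. Its automatic threshold marked 7 cells in library 1, so a score of 0.25 was used throughout, set after the data were seen, which left out 258, 203 and 207 cells. Clustering used 2000 variable genes without the members and the translation lists, 30 components, 15 neighbours and Leiden (leidenalg 0.10.2) at resolution 1. A class name needed 3 markers, each detected in 20% of the cells of the cluster and higher there by 0.5 on the log2 scale. A cluster led by platelet genes (230, 20 and 51 cells) and one led by Cd209a (45, 28 and 26 cells) stayed unnamed. The rule on platelet-led clusters was set after the data were seen.

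UMIs were summed per class and library and divided by the total (CPM). Ratios have exact conditional intervals and shares exact Clopper-Pearson intervals. TMM factors came from edgeR 4.0.16, used for scaling only. The lymphocyte part of a gene in neutrophil-like cells is its CPM in B-like and T-like cells times the level of B and T cell markers there relative to those classes, a measure chosen after the data were seen. No test was run, because there is 1 library per group and none is assigned. The ratios and calls were tried only on simulated counts, drawn from 1 B-like profile with planted changes. Those counts had no spread between cells or libraries beyond counting error, so the run cannot show how calls behave under such spread. Named members are the 4 farthest above and below the median in each class, the 4 of widest spread in each class, paralogues, Rpsa and the stalk genes, and from each other list its 3 most abundant genes or those apart from it. Members and lists were chosen with earlier results of these data known. Members counted as apart between libraries were taken from the highest and lowest library, whichever these were. Promoters were from RefSeq and coding lengths from GENCODE M21, as the longest coding sequence of a gene. Results for some genes are not reported here.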

Additional observations from a re-analysis of the deposited data

How the results depend on the processing

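No share ratio turned direction under any alternative run. A count of members called lower or higher cannot turn, so counts are compared by size alone. The ratio of the members' UMI share to that of B-like cells, as the middle of the 3 libraries, was 0.0909 in neutrophil-like, 0.644 in monocyte-like, 1.43 in T-like and 0.690 in NK-like cells. In that order, it was 0.0851, 0.622, 1.37 and 0.662 under a stricter cell filter (500 genes, 5% mitochondrial UMIs). Mitochondrial UMIs left out gave 0.0856, 0.627, 1.42 and 0.674. TMM scaling gave 0.199, 0.633, 1.64 and 0.560, the median cell 0.0857, 0.622, 1.43 and 0.617, and cells thinned to 1000 UMIs 0.0966, 0.632, 1.42 and 0.650. With doublets kept the values were 0.0873, 0.638 and 0.705 in neutrophil-, monocyte- and NK-like cells. That run also changed the classes. A cluster of 2527 cells with B cell markers went unnamed as led by platelet genes, and 87.2% of the named cells kept their class. Leiden resolution 2 gave 0.0915, 0.648 and 1.42 in neutrophil-, monocyte- and T-like cells. Members allowed in the clustering gave 0.0905 in neutrophil-like cells. Without S100a8 and S100a9 the ratios were 0.126 and 0.648 in neutrophil- and monocyte-like cells, and with the lymphocyte marker part subtracted 0.0734 and 0.633. Naming the platelet-led cluster, a choice made after seeing the data like the subtraction, gave 0.647 in monocyte-like cells.

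Counts moved by over 1.5 times in these cases. TMM scaling called 53 members higher in T-like and 40 lower in NK-like cells, in place of 19 and 12. Rps27l, the 1 member higher in NK-like cells, was not called (0) with TMM scaling, at 2-fold or at a minimum of 100 UMIs. The stricter cell filter called 21 lower in NK-like cells and 1 apart from the set in T-like cells. At 2-fold, 4 were lower in monocyte-like, 2 higher in T-like and 2 lower in NK-like cells; 12, 2, 0 and 1 were apart from the set in neutrophil-, monocyte-, T- and NK-like cells, and 2 and 1 were apart between libraries in neutrophil- and monocyte-like cells. A minimum of 100 UMIs left 1 apart between libraries in monocyte-like cells. Leaving out each library in turn, also added after seeing the data, gave 23 to 42 members lower in monocyte-like cells, the 42 without library 1, and 12 to 22 lower in NK-like cells, the 22 without library 3. The other 122 values stayed within 1.5 times (counts) or their counting interval (ratios). With 1 library per group and pooled mice, differences between animals cannot be seen. No paired analysis was possible because each group has 1 library and no label ties a library to a group.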
